A study of Rattus norvegicus with 18 samples.

Results

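The libraries of a rat cortical neuroglial culture study carry a treatment name and a number from 1 to 3. The 6 libraries numbered 1, 1 in each treatment, were compared here with the 6 numbered 2, paired by treatment. These are 12 of the 18 libraries in the series, grouped by the number in their titles, and the 6 libraries numbered 3 were set beside them as a description. That the numbers differed in their content of ribosomal RNA was known when this comparison was chosen. The study asked whether secreted products of glial progenitor cells alter the response of neurons to toxic amounts of glutamate. All cultures came from the cortex of newborn Wistar rats and were used on day 10 in vitro, and RNA was taken 4 h after glutamate. Control cultures received no glutamate. Glutamate cultures received it at 100 µM, and Memantine stands for cultures placed by the design text in the glutamate model with 100 µM memantine, a blocker of the NMDA receptor, although its label does not name glutamate. Glutamate_vesicles, Glutamate_secret and Glutamate_BPC cultures also received 100 µM glutamate. Glutamate_vesicles cultures had been given extracellular vesicles of the progenitor cells, which were human, on the previous day. Glutamate_secret and Glutamate_BPC cultures had been given other preparations of the same cells, and the labels do not tell which of them held proteins of a size fraction and which held everything secreted. The growth medium of all cultures held cytosine arabinoside, which limits the division of glia. The study's supplement names a day covariate only for a separate experiment without glutamate. For the glutamate groups it mentions a batch correction, but not what the batch was or which libraries shared it. Whether libraries with the same number share a preparation of cells, an animal or a day is therefore not known, and number and batch cannot be told apart here. The p-values below therefore measure the spread between these libraries only.

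A primary neuroglial culture is a mixture. Neurons carry the machinery of synaptic release and long axons, astrocytes take up glutamate and potassium, oligodendrocyte precursors go on to make myelin, and a small number of microglia act as resident immune cells. Each ribosome joins ribosomal RNA (rRNA), cut from a long 45S precursor, with a large set of proteins, and the oxidative phosphorylation complexes of mitochondria join many nuclear-encoded subunits with a few encoded by mitochondrial DNA. Messenger RNAs of ribosomal proteins are short and abundant, whereas many synaptic adhesion molecules of neurons are encoded by very long genes.

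Library totals ranged from 8409574 to 11676721 expected counts in number 1 and from 10406915 to 17206354 in number 2. The total was larger in number 2 in 5 of 6 pairs (mean difference 3402153 ± 3168066, SD, n = 6 pairs, exact paired permutation p = 0.09375, two-sided, and 0.09375 after adjustment). The number of genes with at least 1 count was 15625 ± 737 in number 1 and 17081 ± 281 in number 2 (SD, n = 6 each) and was larger in number 2 in 6 of 6 pairs. The exact paired permutation test gave p = 0.03125, the smallest value that 6 pairs allow, and 0.0625 after adjustment over the 2 measures tested. After thinning to 4792225 counts outside rRNA rows in each library, a step chosen after seeing the data, the numbers of genes were 15080 ± 457 and 16025 ± 124, again in the same order in 6 of 6 pairs. Control 1 stood apart from the other libraries of its number, with 43.0% of its counts in rRNA rows (95% Wilson interval 42.981% to 43.048%, counting error only) against 13.4% to 17.3%. Results are therefore given without the Control pair where that pair moved them. No 2 libraries agreed within counting noise, the smallest chi-square per degree of freedom between libraries being 12.3.

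**Figure D1:**
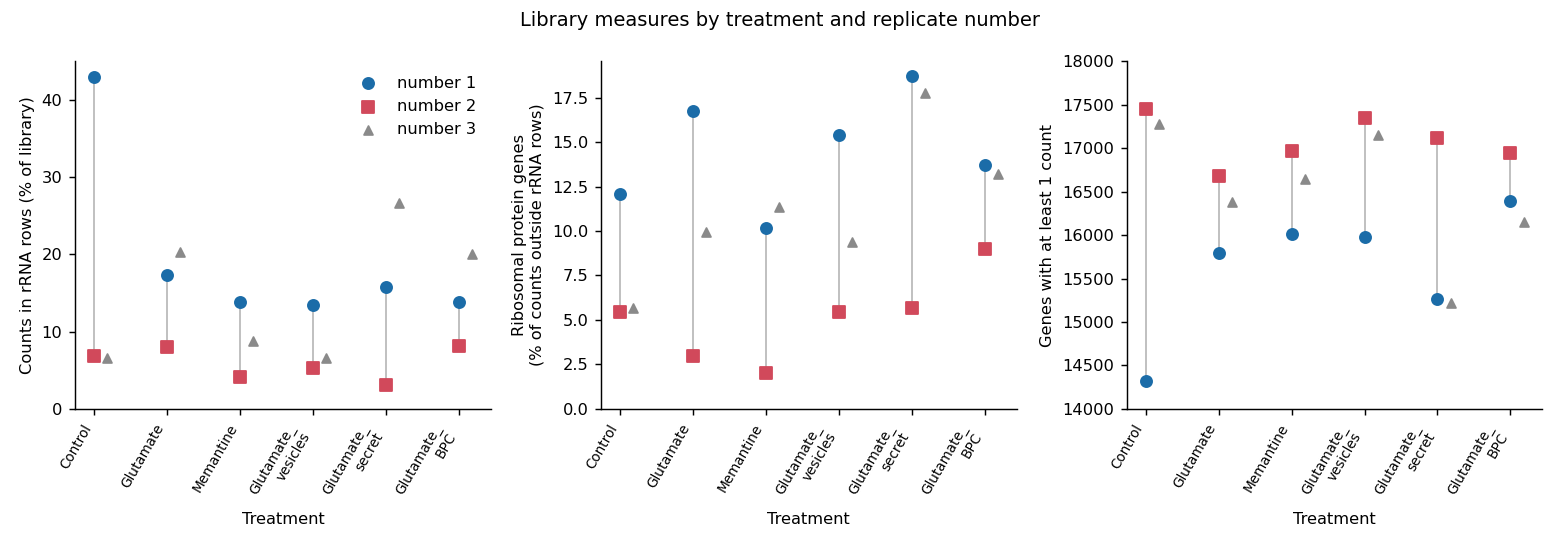
Library measures by treatment (horizontal axis), with circles for number 1, squares for number 2 and triangles for number 3 and a line joining the 2 libraries of a pair. The panels give the share of counts in rRNA rows in percent, the share of ribosomal protein genes among the remaining counts in percent, and the number of genes with at least 1 count on an axis that does not start at 0. In each panel the order of numbers 1 and 2 was the same in all 6 treatments.

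Expression differed between the numbers across most of the transcriptome. With treatment as a block, 8452 of 13265 tested genes passed an adjusted p of 0.05 in the quasi-likelihood test of edgeR (63.7%). Of these, 4590 were higher in number 2 (34.6% of tested genes) and 3862 were lower (29.1%). A log2 fold change, given throughout as number 2 minus number 1, exceeded 1 in 3424 called genes and was below -1 in 2710. The median absolute log2 fold change over all tested genes was 0.94. A gene with a median below about 1 CPM in 1 number could pass the filter on low counts through the other number alone. Its fold is then a description only. Levels are CPM, that is, counts scaled to a common total, at library sizes corrected with TMM factors, which align the bulk of genes between libraries. The CPM ranges of the 6 and 6 libraries did not overlap for 31.1% of tested genes, 17.1% higher and 14.1% lower in number 2. Every group of genes below is to be read against these shares and against the median log2 fold change of all genes, 0.13. That median was 0.27 with upper-quartile factors and 1.08 with library totals only, where 86.4% of the called genes were higher in number 2 in place of 54.3%.

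Ribosomal protein genes were lower in number 2 throughout. All 71 tested genes for proteins of the cytosolic ribosome fell, with a median log2 fold change of -2.38 (range -3.62 to -0.62), and 70 of them were lower in 6 of 6 pairs. Of 79 listed genes, 72 were analysed and Rpl38 had 0 counts in all 12 libraries. The genes together took 14.5% ± 3.13 of the counts outside rRNA rows in number 1 and 5.10% ± 2.44 in number 2 (SD, n = 6 each), and the share was lower in number 2 in 6 of 6 pairs. Rps29, a small protein of the 40S subunit, ranged from 2931 to 6691 CPM in number 1 (median 3953) and from 89.5 to 1130 CPM in number 2 (median 504). Its ranges did not overlap, as was the case for 61 of the 71 genes, and it fell by 3.62 on the log2 scale (SE 0.54, adjusted p = 0.000262 in edgeR). Fau, whose product is a fusion that releases a 40S protein, ranged from 155 to 405 CPM and from 6.42 to 60.6 CPM, again without overlap (log2 fold change -3.45). Rpl3, which helps to form the peptidyl transferase centre, changed least, by -0.62 (SE 0.24, edgeR adjusted p = 0.0379), and was still lower in 6 of 6 pairs. With library totals only, 62 of the 71 were called lower, with a median of -1.40.

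Genes of the mitochondrial ribosome and of oxidative phosphorylation showed the same direction with a wider spread. Of 73 tested genes for mitochondrial ribosomal proteins, 65 were lower and 0 higher (median log2 fold change -1.66). The largest decreases were those of Mrpl54 (-3.12), with ranges of 148 to 346 CPM and 7.76 to 69.2 CPM, and of Mrpl23 (-3.06). With library totals only, 36 were lower and 4 higher. Of 75 tested nuclear genes for oxidative phosphorylation, 67 were lower and 3 higher (median -2.20). Cox7a1, a small subunit of cytochrome c oxidase, ranged from 139 to 344 CPM in number 1 and from 5.31 to 50.7 CPM in number 2, and fell by 4.01 (SE 0.62, adjusted p = 0.000302 in edgeR). Atp5f1e, the epsilon subunit of the ATP synthase, ranged from 19.0 to 62.0 CPM and from 0.584 to 7.18 CPM (-3.99). Both genes were separated without overlap, as were 59 genes of this list in that direction. The 3 genes that were higher were Ndufs1 (0.59), the largest subunit of complex I, Uqcrc2 (0.75), a core protein of complex III, and Ndufa10l1 (0.96). None of these 3 was called without the Memantine pair or without the Glutamate_secret pair. Uqcrc2 was also not called without the Glutamate pair, without the Glutamate_vesicles pair or without the treatment block. In the main fit, subunits of the same complex thus differed in both directions between the numbers, but the calls of the higher ones depended on single pairs.

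Promoters are shown for a few genes from lists that fell and from the long neuronal list, which had members in both directions. Of the tested members, 55 of 71 cytosolic ribosomal protein genes, 56 of 73 mitochondrial ribosomal protein genes, 64 of 75 oxidative phosphorylation genes, 25 of 41 long and 11 of 15 short neuronal genes had an entry among RefSeq promoters of the assembly GRCr8. Given are the 60 bases before the annotated start, 5′ to 3′ on the strand of the gene, in lower case, with any match to a searched motif in capitals. The ETS-type motif searched was CCGGAAG. The others were the TATA box in the form TATAAA and the CCAAT box, each on both strands. The first 3 were among the ribosomal protein genes that fell most, and the last 3 were among the long neuronal genes that rose most. The fourth, Atp5me (-3.64), was among the oxidative phosphorylation genes that fell most. Cox7a1 (-4.01) and Atp5f1e (-3.99) fell more, had no match in their 60 bases and are not printed.
Fau, chr1:212779453-212779512, plus strand: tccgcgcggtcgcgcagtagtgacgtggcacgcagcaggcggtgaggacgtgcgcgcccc
Rpl36a, chrX:102059389-102059448, plus strand: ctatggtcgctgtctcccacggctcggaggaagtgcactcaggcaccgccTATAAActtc
Rps27, chr2:177964607-177964666, minus strand: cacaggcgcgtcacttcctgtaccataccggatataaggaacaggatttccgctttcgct
Atp5me, chr14:1464800-1464859, plus strand: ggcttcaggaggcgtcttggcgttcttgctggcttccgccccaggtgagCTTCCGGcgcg
Sorcs1, chr1:259535487-259535546, minus strand: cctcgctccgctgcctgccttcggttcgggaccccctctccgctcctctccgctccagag
Tenm4, chr1:159973957-159974016, plus strand: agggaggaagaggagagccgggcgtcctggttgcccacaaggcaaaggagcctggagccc
Astn2, chr5:84759287-84759346, minus strand: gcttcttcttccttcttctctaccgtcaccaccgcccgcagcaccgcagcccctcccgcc

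In the 250 bases before the start, the ETS-type motif was present in 21.8% of the ribosomal protein promoters, 21.4% of the mitochondrial ribosomal protein promoters and 26.6% of the oxidative phosphorylation promoters, against 8.06% of all 24206 promoters and 15.6% of those of tested genes. Among promoters of all genes that were lower in number 2 it was present in 19.0%, and among those of higher genes in 12.9%. It was present in 0% of the long and 0% of the short neuronal promoters, although the short neuronal genes were mostly lower in number 2. TATAAA was present in 10.9%, 12.5%, 6.25%, 4.00% and 9.09% of the promoters of these 5 lists in the same order, against 13.3% of all promoters and 5.82% of those of tested genes. CCAAT was present in 27.3%, 44.6%, 31.2%, 28.0% and 27.3%, against 34.4% and 35.6%. An RNA start with C followed by 4 pyrimidines, a known feature of ribosomal protein messages, was annotated for 38.2% of the ribosomal protein genes, 3.57% of the mitochondrial ribosomal protein genes, 0% of the oxidative phosphorylation genes, 0% of the long and 18.2% of the short neuronal genes, against 2.60% of all promoters and 2.72% of those of tested genes. Among all genes that were lower in number 2 it stood at 3.06%, and among those that were higher at 2.69%. These are matches of letters only.

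The rRNA rows did not move together. Of 78 rows, 60 had 0 counts in all 12 libraries, and of 8 tested rows 5 were lower and 1 higher in number 2. Rn18s, the 18S rRNA of the small subunit, had a log2 fold change of -2.77 (SE 0.47) and Rn28s, of the large subunit, one of -3.31 (SE 0.55). The split of rRNA by number was known when the comparison was chosen. The rRNA rows are therefore a description, and no p-value is given for them. Rn5-8s ranged from 144 to 1246 CPM in number 1 and from 9.61 to 60.2 CPM in number 2 without overlap (log2 fold change -3.38). Rn45s, the precursor row, ranged from 252 to 2645 CPM in number 1 (median 584) and from 1938 to 7266 CPM in number 2 (median 4281), with overlapping ranges. It rose by 2.56 on the log2 scale (SE 0.46) and was higher in 6 of 6 pairs. The counts of Rn18s divided by those of Rn45s were 131 ± 41.1 in number 1 and 3.18 ± 0.601 in number 2 (SD, n = 6 each). The lowest ratio in number 1 was 102 and the highest in number 2 was 3.93. The precursor contains the mature sequences, so that the division of reads between these rows is uncertain, and Rn28s also has a row of almost equal counts that may be a copy. The rows held 19.6% ± 11.6 and 5.91% ± 2.09 of the counts. The labels describe libraries of messenger RNA, in which rRNA is largely removed, and neither the removal nor the integrity of the RNA can be read from these files.

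Other short RNAs gave mixed results. Of 3 tested rows of structural noncoding RNA, out of 2205 in the files, all were lower in number 2, led by Rn7sl1, the RNA of the signal recognition particle (log2 fold change -3.54, SE 0.66, edgeR adjusted p = 0.000808). Of 10 tested replication-dependent histone genes, whose messages lack a poly(A) tail, 7 were lower and 0 higher. H3c13 and H1f4, among the lower ones, had medians of 1.81 and 3.54 CPM in number 1. In number 2 they had 0.490 and 0.870 CPM, and no fold is given at these levels. With library totals only, which shifted all genes, 0 of the 10 histone genes were lower and 2 higher. Relative to the median of all genes, the list median was -1.03 with TMM and -1.01 with library totals only. The genes encoded by mitochondrial DNA did not follow the nuclear subunits. Of 13, 3 were higher, namely Mt-atp8 (2.39), Mt-nd2 (1.22) and Mt-nd4l (1.22), and 2 were lower, Mt-nd3 (-1.32) and Mt-co2 (-1.06). Over all tested genes, 34.6% were higher and 29.1% lower. Mt-atp8 ranged from 23.7 to 72.4 CPM (median 41.8) in number 1 and had a median of 245 CPM in number 2, and Mt-co2 from 5599 to 9270 CPM and from 1757 to 5460 CPM, each without overlap. Their summed share of counts outside rRNA rows was 2.51% ± 0.724 in number 1 and 4.06% ± 0.971 in number 2, higher in 6 of 6 pairs, whereas their summed CPM was higher in number 2 in 3 of 6 pairs. With library totals only, 11 were higher and 0 lower, and Mt-nd3 and Mt-co2 were not called (-0.34 and -0.09). Relative to the median of all genes, the list median was 0.29 with TMM and 0.31 with library totals only.

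Single neuronal markers went in both directions, while their summed level was lower in number 2. In bulk samples, fewer cells of a type and less RNA per cell cannot be told apart, and this holds for every marker below. Of 15 general neuronal markers, 3 were higher in number 2, 6 were lower and 6 were not called (median log2 fold change -0.50, and 0.46 with library totals only, where the median of all genes was 1.08). Without the Control pair, 9 were lower and 3 higher. The summed CPM of the list was lower in number 2 in 6 of 6 pairs, with medians of 2781 and 1633. The sum is weighted to the most abundant members, Stmn2, Uchl1 and Gap43, all of which were lower. Stmn2 and Uchl1 also belong to the short neuronal list below. Snap25, a protein of synaptic vesicle fusion, ranged from 10.1 to 34.5 CPM in number 1 (median 18.3) and from 30.3 to 135 CPM in number 2 (median 42.1). It was higher in 6 of 6 pairs with slightly overlapping ranges (log2 fold change 1.51, SE 0.20, edgeR adjusted p = 0.00022). Map2, a protein of dendritic microtubules, rose by 1.79 (SE 0.44, edgeR adjusted p = 0.00418) in 5 of 6 pairs, and Dcx, of migrating neurons, rose by 1.38. Against these, Uchl1, a ubiquitin hydrolase abundant in neurons, ranged from 687 to 1766 CPM in number 1 (median 829) and from 86.9 to 703 CPM in number 2 (median 228). It was lower in 6 of 6 pairs, as was Syt1, the calcium sensor of vesicle release (-2.01 and -1.92, SE 0.33 and 0.35, edgeR adjusted p = 0.000408 and 0.000662). Syt1 was not called without the treatment block (-1.46). Tubb3, the neuronal tubulin, had 153 to 496 CPM in number 1 and 130 to 991 CPM in number 2, with a log2 fold change of 0.08 (edgeR adjusted p = 0.811, and -0.11 without the Control pair). Rbfox3, which encodes NeuN, had -0.32 (edgeR adjusted p = 0.367), a called -0.63 without the Control pair and 0.61 with library totals only. Both genes were present in all 12 libraries. Markers of the same cells thus ran in opposite directions between the numbers, as did tested genes as a whole (34.6% higher and 29.1% lower).

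Single markers of neuronal subtypes also went in both directions, as did tested genes as a whole (34.6% higher and 29.1% lower). The summed CPM was lower in number 2 in 6 of 6 pairs for the excitatory list (medians 151 and 69.1) and for the inhibitory list (medians 296 and 178). Of 12 excitatory markers, 3 were higher and 4 lower (median 0.01, from -0.48 without the Control pair to 0.13 without the Glutamate pair). Camk2a, a synaptic kinase (1.55), Cux2, of upper cortical layers, with 2.90 to 19.6 CPM in number 1 and 7.36 to 63.6 CPM in number 2, and Tbr1, of deep layers (1.24), rose. The transcription factors Neurod2 (-2.57) and Bcl11b (-1.50) fell, the latter not with library totals only (-0.54). Slc17a7, the vesicular glutamate transporter, ranged from 9.45 to 104 CPM in number 1 and from 3.91 to 84.4 CPM in number 2. It fell by 0.90 on the log2 scale (SE 0.35, edgeR adjusted p = 0.0400). It was 0.02 with library totals only, -0.22 without the treatment block, and was not called in either, nor without the Glutamate pair (-0.67), the Glutamate_secret pair (-0.66) or the Glutamate_BPC pair (-0.81). Of 12 inhibitory markers, 2 were higher and 4 lower. Dlx2 (2.44) and Lhx6 rose, whereas Dlx6 (-3.59), Npy (-2.14) and Sst (-1.92) fell. Lhx6 had medians of 0.398 CPM in number 1 and 1.52 CPM in number 2, and no fold is given at these levels. Dlx2 and Dlx6 belong to the same family of homeobox factors of interneurons. Dlx2 ranged from 0.483 to 2.03 CPM in number 1 and from 2.74 to 12.1 CPM in number 2, and Dlx6 from 18.1 to 269 CPM and from 2.28 to 9.97 CPM. Neither pair of ranges overlapped. Gad1, which makes GABA, had -0.38 (edgeR adjusted p = 0.129) and a called -0.51 without the Control pair, and 0.58 with library totals only.

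The neuronal genes were also grouped by size, since 47 neuronal genes are known to be very long and 16 abundant neuronal transcripts to be short. Of 41 tested long genes, 20 were higher and 7 lower in number 2, against 34.6% and 29.1% of all tested genes. Their median log2 fold change was 0.80. The summed CPM of the list was higher in number 2 in 3 of 6 pairs, with medians of 1009.6 and 1084. Sorcs1, a sorting receptor, ranged from 2.59 to 5.53 CPM in number 1 and from 8.29 to 37.7 CPM in number 2 without overlap (2.45, SE 0.37, edgeR adjusted p = 0.000261). Csmd1, a membrane protein that acts on complement, ranged from 0.483 to 3.74 CPM and from 1.98 to 23.3 CPM with overlap (2.42, SE 0.54, edgeR adjusted p = 0.00238). Several long genes went the other way. Fgf14, which binds sodium channels, ranged from 13.2 to 57.2 CPM in number 1 and from 2.19 to 9.16 CPM in number 2 (-2.48), and Ntm, an adhesion molecule, fell by 1.59, although not with library totals only (-0.62). Of the ankyrins that anchor channels in axons, Ank2 rose by 1.84 and Ank3 fell by 1.15. Cntnap2 had 0.61 (edgeR adjusted p = 0.164) and was called without the Glutamate_BPC pair (0.91). The count of higher genes ranged from 15 to 25 when 1 treatment pair was left out, and was 10 of 29 with a filter of at least 1 CPM in all 12 libraries.

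Of 15 tested short neuronal genes, 12 were lower and 0 higher, with a median of -1.78, and the summed CPM was lower in number 2 in 6 of 6 pairs. This list shares Uchl1 and Stmn2 with the general neuronal markers and Nrgn with the excitatory ones, so these results are not independent. Stmn3, a microtubule regulator, ranged from 365 to 1542 CPM in number 1 (median 551) and from 40.7 to 422 CPM in number 2 (median 102). Its ranges overlapped slightly, and it was lower in 6 of 6 pairs (log2 fold change -2.50, SE 0.35, edgeR adjusted p = 0.000224). Tmsb10, which binds actin, ranged from 1547 to 2925 CPM and from 159 to 913 CPM without overlap (-2.48). Nrgn, Cplx2 and Thy1 were not called (-0.10, -0.03 and -0.52). With library totals only, 8 were lower and 1 higher, and 28 long genes were higher and 1 lower. Transcript lengths of the build used by the authors were not analysed here, so that length was not tested across all genes.

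**Figure D2:**
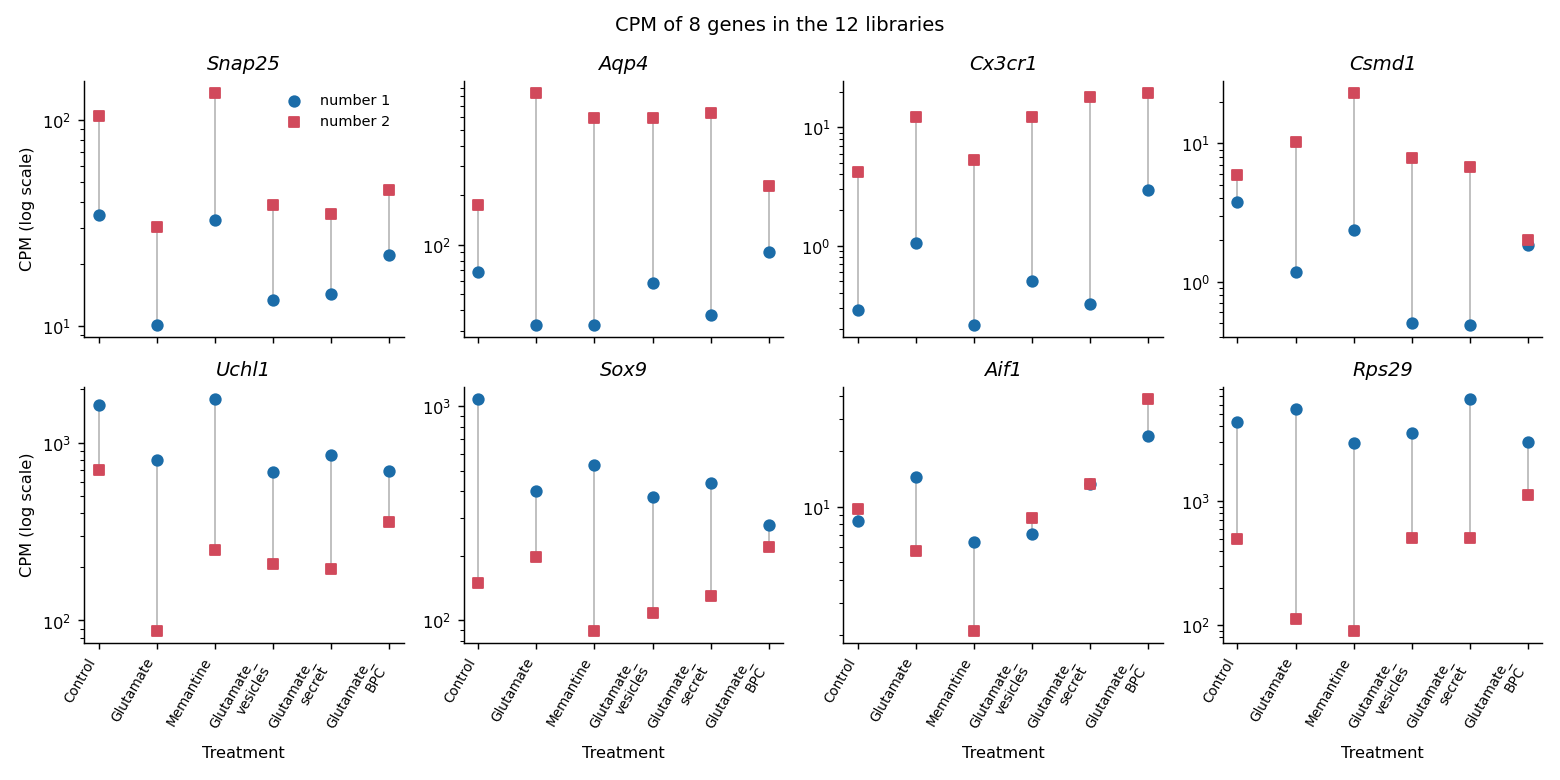
CPM on a log axis for 8 genes in the 12 libraries by treatment, with circles for number 1, squares for number 2 and a line joining each pair. In the upper row, Snap25, Aqp4, Cx3cr1 and Csmd1 were higher in number 2 in all 6 treatments. In the lower row, Uchl1, Sox9 and Rps29 were lower in all 6, and Aif1 was higher in 4 and lower in 2.

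Astrocyte markers were split as well, with 6 of 13 higher and 4 lower (median 0.56). Tested genes as a whole were split too, with 34.6% higher and 29.1% lower. Aqp4, the water channel of astrocytes, ranged from 32.3 to 90.1 CPM in number 1 (median 47.6) and from 174 to 842 CPM in number 2 (median 590). The ranges did not overlap, and the gene rose by 3.21 (SE 0.50, adjusted p = 0.000297 in edgeR). Fgfr3, a growth factor receptor (2.53), Atp1b2, a subunit of the sodium pump (2.26), Gja1, the main gap junction protein (1.56), and the glutamate transporters Slc1a3 (1.40) and Slc1a2 (1.31) rose too. Sox9, a transcription factor of astrocytes, ranged from 278 to 1085 CPM in number 1 and from 88.5 to 220 CPM in number 2, again without overlap (-1.74, SE 0.33, edgeR adjusted p = 0.00093). Aldh1l1, a folate enzyme, fell by 1.24 and S100b, a calcium-binding protein, by 1.18. The change of Aldh1l1 was not called with library totals only (-0.28). Gfap, the intermediate filament of astrocytes, had 1284 to 5260 CPM in number 1 and 1541 to 5170 CPM in number 2 (-0.34, edgeR adjusted p = 0.305, and 0.61 with library totals only). The summed CPM of the astrocyte list was higher in number 2 in 1 of 6 pairs, with medians of 7850 in number 1 and 7939 in number 2. The sum is weighted to Gfap, the most abundant member.

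Markers of the oligodendrocyte lineage were higher in number 2 or not called. Of 13, 9 were higher and 0 lower (median 0.89), against 34.6% and 29.1% of all tested genes. The summed CPM of the list was higher in number 2 in 6 of 6 pairs. Pdgfra, the growth factor receptor of precursors, ranged from 21.3 to 75.6 CPM in number 1 (median 38.4) and from 95.3 to 323 CPM in number 2 (median 243). It was separated without overlap (2.50, SE 0.27, edgeR adjusted p = 0.00022). Enpp6, of newly formed oligodendrocytes, rose by 2.20 and Mbp, a protein of myelin, by 1.05. Olig1, Cnp and Mog had log2 fold changes from -0.20 to -0.04 and were not called.

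Microglial markers were either higher in number 2 or not called. Of 14, 7 were higher and 0 lower (median 0.89), against 34.6% and 29.1% of all tested genes. The count and the median include Cx3cr1, Itgam, P2ry12 and Ptprc, for which no fold is given below because of their low levels. Cx3cr1, the fractalkine receptor, ranged from 0.213 to 2.95 CPM in number 1 (median 0.412) and from 4.22 to 19.6 CPM in number 2 (median 12.2), without overlap. At such levels it could pass the filter on low counts through number 2 alone, so that no fold is given. Itgam, an integrin of the complement receptor, ranged from 0 to 0.553 CPM and from 1.34 to 6.44 CPM. It was at 0 in 3 of 6 libraries of number 1 and could pass the filter on low counts only through number 2, so that no fold is given. The receptor Csf1r (2.72) and the lysosomal protein Cd68 (2.34) rose. The receptor P2ry12 and the phosphatase Ptprc were higher as well, with mean log2 CPM of -0.28 and 0.88, and no fold is given at these levels. Aif1, an actin-binding protein of the same cells, had 6.40 to 24.3 CPM in number 1 and 2.10 to 38.5 CPM in number 2 (-0.26, edgeR adjusted p = 0.503, 0.07 without the treatment block and 0.69 with library totals only). The small signalling adaptors Tyrobp (0.07) and Fcer1g (-0.86), the receptor Trem2 (-0.16) and Tmem119 (0.03) were not called either. Many of these levels are low, and with a filter of at least 1 CPM in all 12 libraries 1 of 6 tested markers was higher. Without the Control pair 7 were higher and 1 lower. The summed CPM of the list had a median of 129 in number 1 and 177 in number 2 and was higher in number 2 in 5 of 6 pairs.

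Markers of other cells were few. Of 10 endothelial genes, 1 was tested, Pecam1, with at most 2.69 CPM in any of the 12 libraries and medians of 0.939 and 2.18 CPM (edgeR adjusted p = 0.105). It was called without the Glutamate pair and with library totals only (1.97). Of 6 tested fibroblast and mural markers, Col1a2 and Pdgfrb (0.97) were higher and Tagln (-1.52), a protein of smooth muscle, was lower. Col1a2 had medians of 0.992 CPM in number 1 and 2.74 CPM in number 2, and no fold is given at these levels. Col1a2 was not called without the Glutamate_secret pair, nor Tagln without the treatment block. Col1a1 and Col3a1, both collagens, had at most 6.48 CPM in the 12 libraries and were not called (0.51 and 0.48, adjusted p = 0.356 and 0.680 in edgeR). Col3a1 had -0.27 without the treatment block and -0.06 without the Memantine pair, and Col1a1 was called with library totals only (1.42). Ccdc153 and Folr1, markers of ependyma and choroid plexus, and the haemoglobin genes Hbb and Hba-a1 were lower in number 2. They had at most 9.82 CPM. Their medians in number 2 were 0.884, 0.639, 0.656 and 0.816 CPM in this order, and no fold is given at these levels. Of 7 neural progenitor genes, 2 were higher and 1 lower, and the higher ones were Pax6 (1.77) and Hes1 (0.58). Hes1 was not called without any 1 of 5 treatment pairs (0.48 to 0.61). Of 16 proliferation genes, 4 were higher and 2 lower, against 34.6% and 29.1% of all tested genes. Bub1 (1.62) and Aurkb (1.13) of the mitotic checkpoint, Top2a (0.99) and Mki67 (0.79) were higher, and Birc5 (-1.99) and Cdc20 (-0.55) were lower, although Birc5 and Aurkb form a single complex. Without the Control pair 4 were lower. Cdc20 was not called without the Glutamate, Glutamate_vesicles, Glutamate_secret or Glutamate_BPC pair (-0.56 to -0.47), without the treatment block (-0.65) or with upper-quartile factors (-0.41), and was 0.40 with library totals only. Aurkb was not called without the treatment block (0.95). Of the Y-linked genes, Kdm5d ranged from 0.905 to 5.17 CPM in number 1 and from 7.36 to 26.4 CPM in number 2 (2.14, SE 0.42, edgeR adjusted p = 0.00109). Uty was higher too, with medians of 0.885 CPM in number 1 and 5.74 CPM in number 2, and no fold is given for it at these levels. Eif2s3y, which lies on the same chromosome, had medians of 66.1 and 75.1 CPM (0.36, edgeR adjusted p = 0.141, and a called 1.34 with library totals only). Xist, Malat1 and Rpl41 were not analysed here.

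Stress and activity genes were examined because glutamate was added to most cultures. Of 17 immediate early genes, which neurons induce within minutes of activity, 7 were higher and 4 lower. Over all tested genes, 34.6% were higher and 29.1% lower. Arc, Fosl2 (1.87) and Egr2 (1.85) were higher and Ier2 (-1.06) and Jund (-1.03) lower, the latter pair not called with library totals only (-0.09 and -0.07). Arc had medians of 0.885 CPM in number 1 and 3.08 CPM in number 2, and no fold is given at these levels. Fos had 13.8 to 46.9 CPM and 12.4 to 44.7 CPM (-0.28, edgeR adjusted p = 0.314, and 0.68 with library totals only). Without the Glutamate_vesicles pair, 3 were higher, and Arc was then not called. Of 12 genes of the integrated stress response, 5 were lower and 0 higher, against 29.1% and 34.6% of all tested genes. With library totals only, 1 of the 12 was lower and 7 higher. Relative to the median of all genes, the list median was -0.39 with TMM and -0.37 with library totals only. Ddit3, a factor of prolonged stress, had a median of 147 CPM in number 1 and 37.6 CPM in number 2 without overlap of the ranges (-2.16, SE 0.35, edgeR adjusted p = 0.00037). Atf4 fell by 1.02, and by an uncalled 0.06 with library totals only. Of 14 hypoxia and glycolysis genes, 4 were higher and 0 lower, against 34.6% and 29.1% of all tested genes. Pfkfb3, which raises glycolysis, ranged from 2.56 to 16.1 CPM and from 25.9 to 130 CPM (3.67), and Vegfa from 10.3 to 28.0 CPM and from 41.9 to 81.2 CPM (1.89), both without overlap. Aldoa, Ldha, Eno1 and Pgk1, the abundant enzymes of glycolysis, were not called (-0.63, -0.43, -0.14 and -0.11). Of 5 tested inflammation genes, 1 was called, Nfkbia (-1.72), an inhibitor of NF-kappaB.

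Among called genes whose log2 CPM averaged 3 or more and whose sign was shared by 6 of 6 pairs, the strongest differences were of a similar size in both directions. The lowest were Scrt1, a neuronal repressor (-4.21), Lgals1, a galectin (-4.04), Cox7a1 and Atp5f1e, named above, Timm13, a chaperone of mitochondrial import (-3.73), Mt3, the metallothionein of brain (-3.70), Uqcc2, an assembly factor of complex III (-3.70), and Rps29. Mt3 ranged from 1617 to 4357 CPM in number 1 and from 55.1 to 580 CPM in number 2. Among the highest were Ednrb, the endothelin receptor of astrocytes (4.05), Nlgn2, the adhesion molecule of inhibitory synapses (3.90), Lrrc58 (3.85), Ptprz1, a receptor phosphatase of glia and precursors (3.69), Pfkfb3, Adam10, a protease that sheds membrane proteins (3.65), and Ncan, a proteoglycan of brain matrix (3.54). Ptprz1 ranged from 42.4 to 94.3 CPM in number 1 and from 271 to 1589 CPM in number 2. Ncan ranged from 54.4 to 168 CPM and from 272.5 to 1867 CPM. All 16 genes, 8 in each direction, were separated without overlap, which the choice of genes favours. At the other end, 335 of the 13265 genes had differences within 0.5 on the log2 scale in all 6 pairs.

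The size of the difference varied between treatments while its direction was largely shared. Over all tested genes, the median absolute log2 difference within a pair was 1.25 in Memantine, 1.22 in Glutamate, 1.13 in Glutamate_secret, 0.96 in Control, 0.90 in Glutamate_vesicles and 0.46 in Glutamate_BPC. Between 90.8% (Control) and 99.7% (Glutamate_secret) of the called genes had the common sign in a given pair, which the call itself favours. The median over ribosomal protein genes was -3.46 in Glutamate, -3.02 in Memantine, -2.60 in Glutamate_secret, -2.06 in Glutamate_vesicles and -0.90 in Glutamate_BPC, with Control next to Glutamate_vesicles. Oxidative phosphorylation genes and short neuronal genes had their largest and smallest medians in the same treatments as the ribosomal protein genes. The long neuronal genes had a median of 1.55 in Memantine and -0.27 in Glutamate_BPC. Microglial markers had a different order, with 1.79 in Control, 1.64 in Glutamate_BPC and -0.55 in Glutamate. With 1 library of each number in a treatment, a difference between treatments in these values could not be tested.

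**Figure D3:**
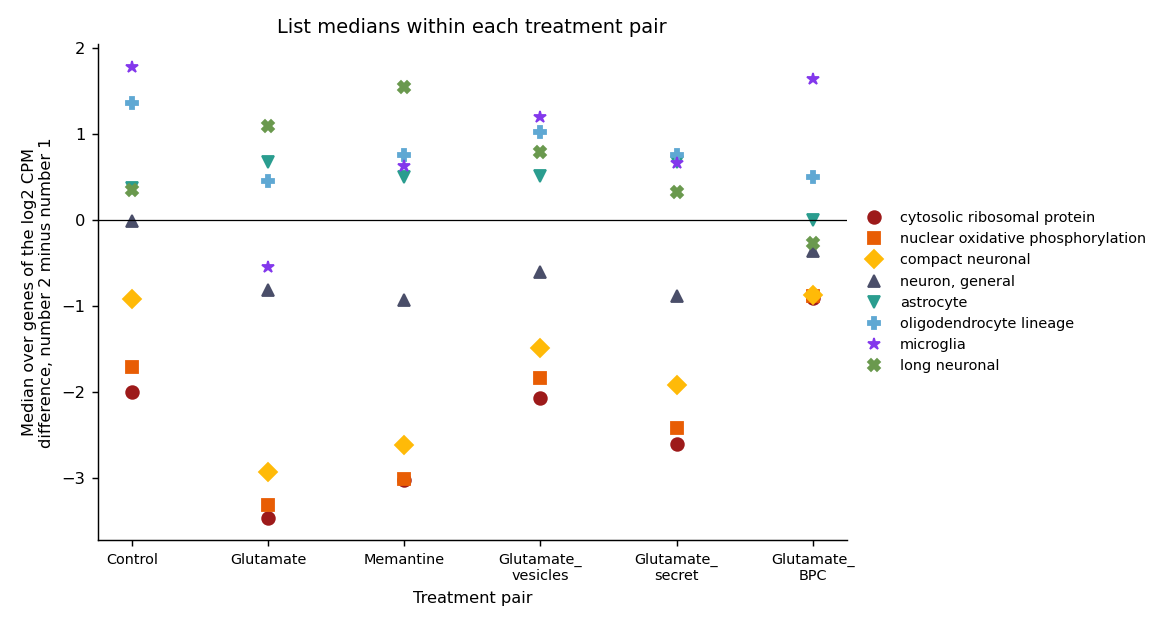
Median over the tested genes of 8 lists of the difference in log2 CPM, number 2 minus number 1 (vertical axis), within each treatment pair (horizontal axis). The ribosomal protein, oxidative phosphorylation and short (compact) neuronal lists lie below 0 in all 6 treatments and nearest to 0 in Glutamate_BPC, and the oligodendrocyte lineage list lies above 0 in all 6.

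The 6 libraries numbered 3 did not form a set of their own kind. In a fit of all 18 libraries, with 13776 genes tested, 228 genes differed between numbers 3 and 1 (1.66%), 172 of them higher in number 3 (1.25%) and 56 lower (0.407%). Between numbers 3 and 2, 6002 genes differed (43.6%), 3154 higher in number 3 (22.9%) and 2848 lower (20.7%). These comparisons share libraries with the one above and are placed beside it only. The likelihood-ratio test called 1272 genes and DESeq2 1534 between numbers 3 and 1. For the 8452 genes called between numbers 1 and 2, the position of each number 3 library was measured on a line where 0 is its number 1 and 1 its number 2 partner. The median position was 1.03 in Control 3, 0.61 in Glutamate_vesicles 3, 0.32 in Glutamate 3, 0.16 in Memantine 3, -0.01 in Glutamate_secret 3 and -0.14 in Glutamate_BPC 3. The share of genes closer to number 2 was 89.2% in Control 3 and 67.8% in Glutamate_vesicles 3, and it ranged from 9.58% to 28.8% in the other 4. Number 3 was thus spread over the distance between the others, and a mean over its libraries joins unlike libraries.

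The gene lists placed number 3 accordingly, with some exceptions. CPM of number 3 used TMM factors from all 18 libraries, and CPM of numbers 1 and 2 used factors from their 12. Levels set side by side here are therefore approximate. Between numbers 3 and 1, 0 of 71 ribosomal protein genes were called in edgeR (median -0.65), and between numbers 3 and 2, 70 of 71 were higher in number 3 (median 1.65). Rps29 ranged from 591 to 6657 CPM in number 3, from within the range of number 2 to within that of number 1. Of 42 long neuronal genes tested in that fit, 25 were lower in number 3 than in number 2 and 0 higher, and 2 were lower than in number 1. Short neuronal genes were lower than in number 1 for 3 of 15 and higher than in number 2 for 5 of 15. Microglial markers went beyond both numbers. Of 14, 8 were higher in number 3 than in number 1 and 7 higher than in number 2, with 1 lower. Their summed CPM ranged from 169 to 968 in number 3 with a median of 523, against medians of 129 and 177 in numbers 1 and 2. Aif1, which was not called between numbers 1 and 2, reached 107 CPM in Glutamate_secret 3 and 73.6 CPM in Glutamate_BPC 3. The ratio of Rn18s to Rn45s was 2.56 in Glutamate_vesicles 3, within the range of number 2, and 18.4 to 30.3 in the other 5 libraries numbered 3, between the ranges of numbers 1 and 2. Control 3 thus lay outside the number 2 range of this ratio, although over the called genes its median position was that of number 2. The part of rRNA content, depth or cell composition in these differences was not tested.

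**Figure D4:**
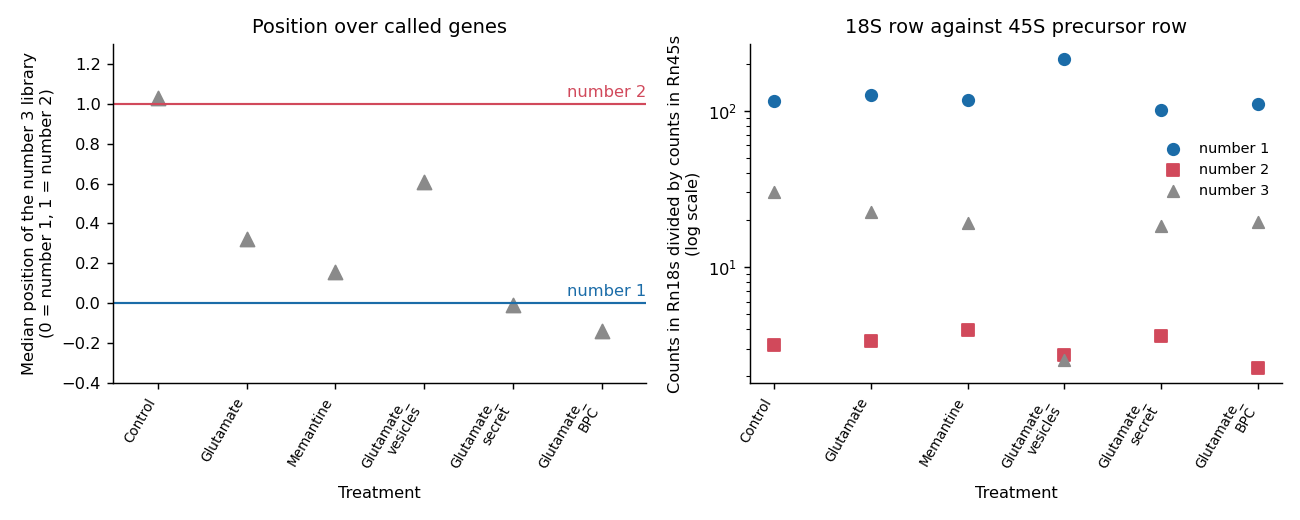
Left, the median position of each number 3 library over the 8452 called genes between its number 1 partner (0) and its number 2 partner (1), by treatment, from -0.14 in Glutamate_BPC to 1.03 in Control. Right, counts of Rn18s divided by counts of Rn45s on a log axis, by treatment and number, which lie at 102 or more in number 1 and at 3.93 or less in number 2.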

How the data were processed

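The authors deposited expected counts, that is, estimated counts of reads per gene without scaling between libraries, in 31463 rows for each of 18 libraries. According to the paper, reads were trimmed with Trimmomatic and Cutadapt, quantified with Salmon in mapping mode on Ensembl transcripts of rn6 with the genome as decoy, and summed to genes with tximport. The submitters' processing notes name STAR and Salmon. The sources name different library kits and instruments, and strand is not stated for the counting, so that reads of overlapping genes may be shared.

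Values were rounded to whole numbers and treated as counts, for which the test had been designed. Genes passed filterByExpr in edgeR 4.0.16 (R 4.3.3; minimum count 10, minimum total count 15). Number 2 was compared with number 1 by the two-sided quasi-likelihood test with TMM scaling and treatment as a block of 6 pairs, with Benjamini-Hochberg adjustment over all tested genes and a threshold of 0.05. Log2 CPM used a prior count of 2, and standard errors (SE) come from the F statistic. Library measures were tested by exact paired permutation in scipy 1.17.1. Alternatives were the likelihood-ratio test, DESeq2 1.42.0, other scalings and filters, no block, each pair left out, and thinning, which was added after seeing the data. The scripts were tested on simulated data.

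Libraries numbered 1 and 2 were compared, and the gene lists chosen, with earlier results of these data known. Named were the 8 highest and 8 lowest called genes with a symbol, log2 CPM averaging 3 or more and the same sign in 6 pairs, the 2 strongest called members of each list in each direction, and a set of fixed genes, while further members were added as examples after their values were seen. Symbols and rRNA rows were recognised with a RefSeq table of GRCr8, which held 92.7% of the tested genes. A planned comparison by coding length was not run. Some genes that the rule for named genes picks are not reported here.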

Additional observations from a re-analysis of the deposited data

Results flagged for a closer look

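In 94 groups of 6 libraries examined, 4 held a library whose distance from the nearest other exceeded Dixon's 95% limit for its share of the range, and chance flags about 1 in 20 groups. All 4 were in number 1. The share of counts in rRNA rows was 43.0% in Control 1, above the other 5. The ratio of Rn18s to Rn45s counts was 213 in Glutamate_vesicles 1, above the other 5. Rbfox3 had 162 CPM in Memantine 1, the highest of number 1, and Eif2s3y had 28.4 CPM in Memantine 1, the lowest of number 1.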

How the results depend on the processing

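The 8452 genes called between numbers 1 and 2 became 7712 with no replicate block, that is, without the treatment pairs, 8853 with the likelihood-ratio test, 8935 with DESeq2 and 7083 to 8889 when 1 treatment pair was left out. It was 8925 with library totals only, 6628 of 10119 with at least 1 CPM in all 12 libraries, 8800 of 20427 without a filter and 7770 of 12170 after thinning. In each of these fits 0 genes were called in the opposite direction. The count between numbers 3 and 1 rose from 228 to 1272 with the likelihood-ratio test and to 1534 with DESeq2.

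With library totals only, where the median of all genes moved to 1.08, the direction of 6 list medians and of 7 named genes turned. The list medians became 0.46 for general neurons, 0.64 for inhibitory neurons, 0.86 for progenitors (0.036 with upper-quartile factors), 0.71 for the integrated stress response, 0.33 for inflammation and 0.070 for histones. The log2 fold changes became 0.40 for Cdc20, 0.61 for Rbfox3, 0.019 for Slc17a7, 0.58 for Gad1, 0.61 for Gfap, 0.69 for Aif1 and 0.68 for Fos. Without the block, Aif1 had 0.073 and Col3a1 -0.27. With RLE factors, the excitatory list had -0.038 and the hypoxia list -0.023, the latter also in DESeq2 (-0.023). With at least 1 CPM in all libraries the excitatory list had -0.10 and the fibroblast list -0.13, and with all 18 libraries and after thinning the excitatory list had -0.12 and -0.036. Without 1 treatment pair in turn, the excitatory list ranged from -0.48 to 0.13, the hypoxia list from -0.047 to 0.14, Tubb3 from -0.11 to 0.21 and Col3a1 from -0.055 to 1.54. Over all fits, 52 values of single genes lost a call and 10 gained one. The cause of these changes was not tested. Levels below about 1 CPM rest on few counts, and without independent labels for cell preparation and sequencing run these cannot be told apart from the number.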
